A study of Mus musculus with 6 samples.

Results

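The 32 genes described here are members and targets of the NF-κB pathway together with inflammatory genes. They comprise the 5 NF-κB subunits, 4 inhibitor or IκB proteins, 10 cytokines and chemokines and 7 receptors. The others are 4 adaptor, survival and inflammasome genes and 2 effectors. Members were taken by gene symbol from the raw count table, without regard to their values, and all 32 were found among its 26027 genes. Of these, 30 held enough counts to be tested, and Cxcl1 and Il1a fell below the filter on low counts.

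RNA came from bone marrow cells of C57BL/6 mice that lacked lineage markers and carried cKit and eYFP (Lin-/cKit+/eYFP+), which the labels class as immature multipotent progenitors. All mice, controls included, carried hScl-CreERT and R26eYFP and had received tamoxifen in vivo. hScl-CreERT is a tamoxifen-inducible Cre under Scl regulatory sequence that is active in haematopoietic stem and progenitor cells, and R26eYFP is a reporter that marks cells in which the Cre has acted. The mutant group was Srsf2 P95H/+, with 3 libraries, and the control group was Srsf2 +/+, called wild type below, also with 3 libraries. In wild type, replicate 1 was a 54-week female, and replicates 2 and 3 were 32-week males. In P95H/+, replicates 1 and 2 were females and replicate 3 was a male, each 32 weeks old. Sex and age were thus not balanced between genotypes. By these labels wild-type replicate 1 and P95H/+ replicate 3 were mice of their own. Whether replicates of like sex and age were separate mice is not stated, and to that extent the p-values may cover technical spread. The time between tamoxifen and collection is not given in the sources used here.

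NF-κB is a family of dimeric transcription factors built from the products of Nfkb1, Nfkb2, Rela, Relb and Rel. In resting cells IκB proteins such as the product of Nfkbia hold the dimers in the cytoplasm. Receptors for interleukin-1, TNF and microbial products signal through adaptors to the IκB kinases, which release the dimers to the nucleus. Many of the genes then induced are brakes on the same pathway, among them Nfkbia and Tnfaip3, so that the transcripts of these brakes are commonly used as readouts of pathway activity. In blood-forming progenitors inflammatory signals that pass through this pathway are known to bias cells towards myeloid output. The comparison asks which of these transcripts differ in progenitors with 1 mutant allele of Srsf2, a splicing factor of the SR protein family.

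Promoter sequence was read for the members to show which of their starts carry the letters that NF-κB is known to bind. RefSeq windows (GRCm38.p6) of 250 bases before and 50 bases after a transcript start were found for 25 of the 32 members. Nfkbiz, Ccl4, Ccl5, Relb, Nfkb1, Cd14 and Tlr4 were not matched in that table. The 10-letter NF-κB consensus, searched on both strands with overlapping matches allowed, was present in a window of 10 of these 25 members, or 40%. The same letters were present in 5.14% of the 27025 genes of the table and in 26.1% of the 69 other NF-κB pathway genes found in it. The stretches below, on the strand of the gene, show promoters with a match in capitals. The 10 were Nfkbia, Rel, Cxcl1, Cxcl2, Tnfaip3, Tlr2, Nfkb2, Bcl3, Nlrp3 and Il1r1. The first set shows the feedback inhibitor Nfkbia, the subunit Rel and the neighbouring chemokine genes Cxcl1 and Cxcl2, whose capitals spell the same letters.
Nfkbia (chr12:55492648-55492706, minus strand): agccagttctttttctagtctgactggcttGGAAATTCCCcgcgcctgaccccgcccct
Rel (chr11:23771021-23771091, minus strand): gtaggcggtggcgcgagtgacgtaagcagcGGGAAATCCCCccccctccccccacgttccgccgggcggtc
Cxcl1 (chr5:90891144-90891214, plus strand): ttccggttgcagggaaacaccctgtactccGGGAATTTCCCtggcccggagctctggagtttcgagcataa
Cxcl2 (chr5:90903772-90903842, plus strand): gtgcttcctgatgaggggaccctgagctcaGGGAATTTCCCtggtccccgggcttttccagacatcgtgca

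Shorter sites are shown for Tnfaip3 and Tlr2, which stood among the members with the smallest p, and for Nfkb2. The longer stretches around their matches overlap annotated exons. The printed Tnfaip3 and Nfkb2 sites lie before the transcript start of their window but inside the annotated span of the gene. The consensus letters are again in capitals.
Tnfaip3, first site (chr10:19015516-19015545, minus strand): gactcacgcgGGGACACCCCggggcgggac
Tnfaip3, second site (chr10:19015411-19015432, minus strand): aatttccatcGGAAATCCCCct
Tlr2 (chr3:83841762-83841790, minus strand): aggacacctGGGGAATTCCCacacggagc
Nfkb2 (chr19:46304689-46304717, plus strand): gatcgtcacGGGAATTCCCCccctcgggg

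The 2 members with an unadjusted p under 0.05, Traf1 and Il1r1, are shown for contrast. The windows of the Traf1 start and the first Il1r1 start held no match, and the 100 bases before each are printed. A second Il1r1 start had a match at position -232, where -1 is the base before the start. A match is a string of letters, and its absence says only that the letters are not in the window.
Traf1 (chr2:34961773-34961872, minus strand): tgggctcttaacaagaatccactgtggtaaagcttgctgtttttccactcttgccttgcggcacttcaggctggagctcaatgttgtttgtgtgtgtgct
Il1r1, first start (chr1:40224980-40225079, plus strand): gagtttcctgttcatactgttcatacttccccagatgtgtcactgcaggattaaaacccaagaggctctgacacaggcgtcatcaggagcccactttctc
Il1r1, second start (chr1:40266336-40266393, plus strand): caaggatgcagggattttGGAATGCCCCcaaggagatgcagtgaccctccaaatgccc

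Library totals ran from 10747941 counts (P95H/+ replicate 3) to 23010510 (wild-type replicate 1). Srsf2 (chr11:116849901-116853094, minus strand) stood at 324, 331 and 343 CPM (the count scaled by the library total) in wild type and 342, 336 and 315 CPM in P95H/+, with log2 fold change 0.07 (SE 0.17, edgeR adjusted p 1). The allele itself cannot be read from gene counts, and exons of Mettl23 and Mfsd11 lie on the other strand there. The gate marker Kit stood between 476 and 548 CPM in the 6 libraries and Cd3e, a T cell gene, at 0.348 CPM or less, but neutrophil genes were present in every library, at a summed 286 to 1391 CPM over 8 genes. The replicate 3 libraries of both genotypes were unlike the rest. Where transcript GC content was at most 40%, genes had a median log2 deviation of -0.59 (wild type) and -0.81 (P95H/+) in these libraries, against 0.30 to 0.44 in the other 4. For that reason the members are given with all 6 libraries and with the 4 libraries of replicates 1 and 2.

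With all 6 libraries no member passed the test between genotypes. In edgeR's quasi-likelihood test 0% of the 17144 genes tested had an adjusted p under 0.05, and the adjusted p of each of the 30 members tested was 1. The smallest over all genes was 0.253. Of the members, 19 were below wild type in P95H/+ and 11 above, with a median log2 fold change of -0.19, while 46.9% of all genes lay below and their median was 0.02. An unadjusted p under 0.05 was reached by Traf1 and Il1r1, both lower in P95H/+, against 1.41% of all genes for lower and 0.7% for higher values. In the plot of fold changes 19 members lie left of 0 and 11 right of it, and Traf1 lies farthest to the left.

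Scaling changed these counts a little. The values above use TMM factors, which scale libraries to a common bulk of genes. With library totals alone 23 members lay below wild type and their median was -0.27, while that of all genes was -0.05. With DESeq2's size factors 18 lay below, at a median of -0.16 against 0.04. In bulk RNA, fewer cells of a type and less RNA per cell cannot be told apart.

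In 3 members every P95H/+ library lay below every wild-type library after TMM scaling, and in none did every P95H/+ library lie above. These were Il1r1, Traf1 and Relb. Among all genes tested 3.91% separated in this way as lower and 3.29% as higher. In CPM by library total Tlr2, Cd14 and Icam1 also separated, making 6 lower members, against 5.94% of all genes as lower and 1.9% as higher.

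In the fits below, each on 5 libraries, more genes separated than with 6, members and others alike. The lowest count of members belongs to the fits without wild-type replicate 1 or 2, whose shares over all genes were not taken. Without wild-type replicate 3, 15 members separated as lower and none as higher, against 13.2% and 11.8% of all genes. Without P95H/+ replicate 1, 5 separated as lower and none as higher, against 5.8% and 5.04%. Without P95H/+ replicate 2, 6 separated as lower and Myd88 as higher, against 7.34% and 5.57%. Without P95H/+ replicate 3, 8 separated as lower and Tlr4 as higher, against 13.4% and 14.3%.

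**Figure D1:**
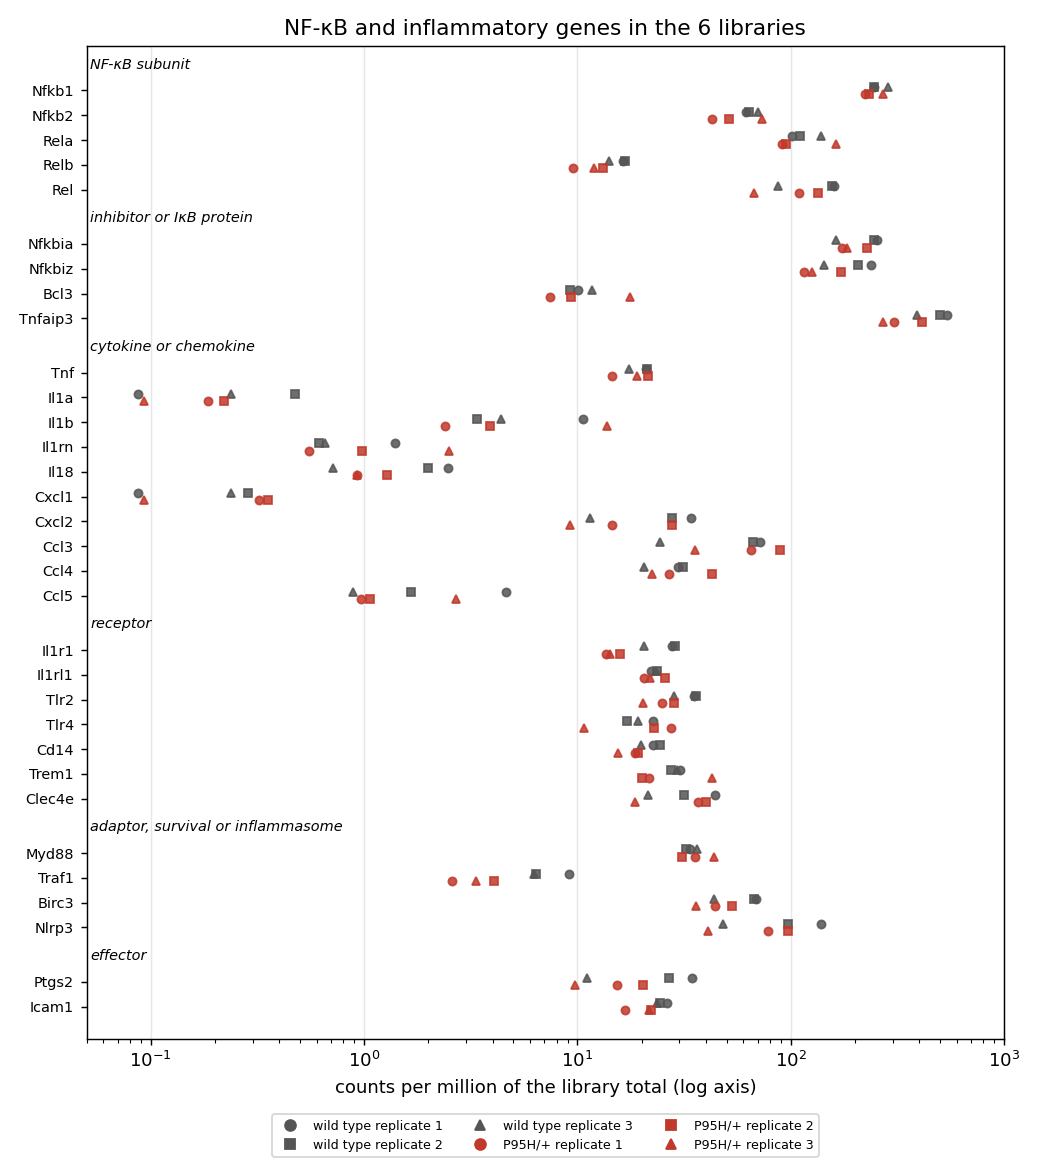
CPM of the 32 members on a log axis, 1 row per gene, grouped by role. Grey symbols are wild-type and red symbols P95H/+ libraries, with circles, squares and triangles for replicates 1, 2 and 3. The groups of most members overlap, and Il1r1, Traf1, Relb, Tlr2, Cd14 and Icam1 separate in CPM.

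**Figure D2:**
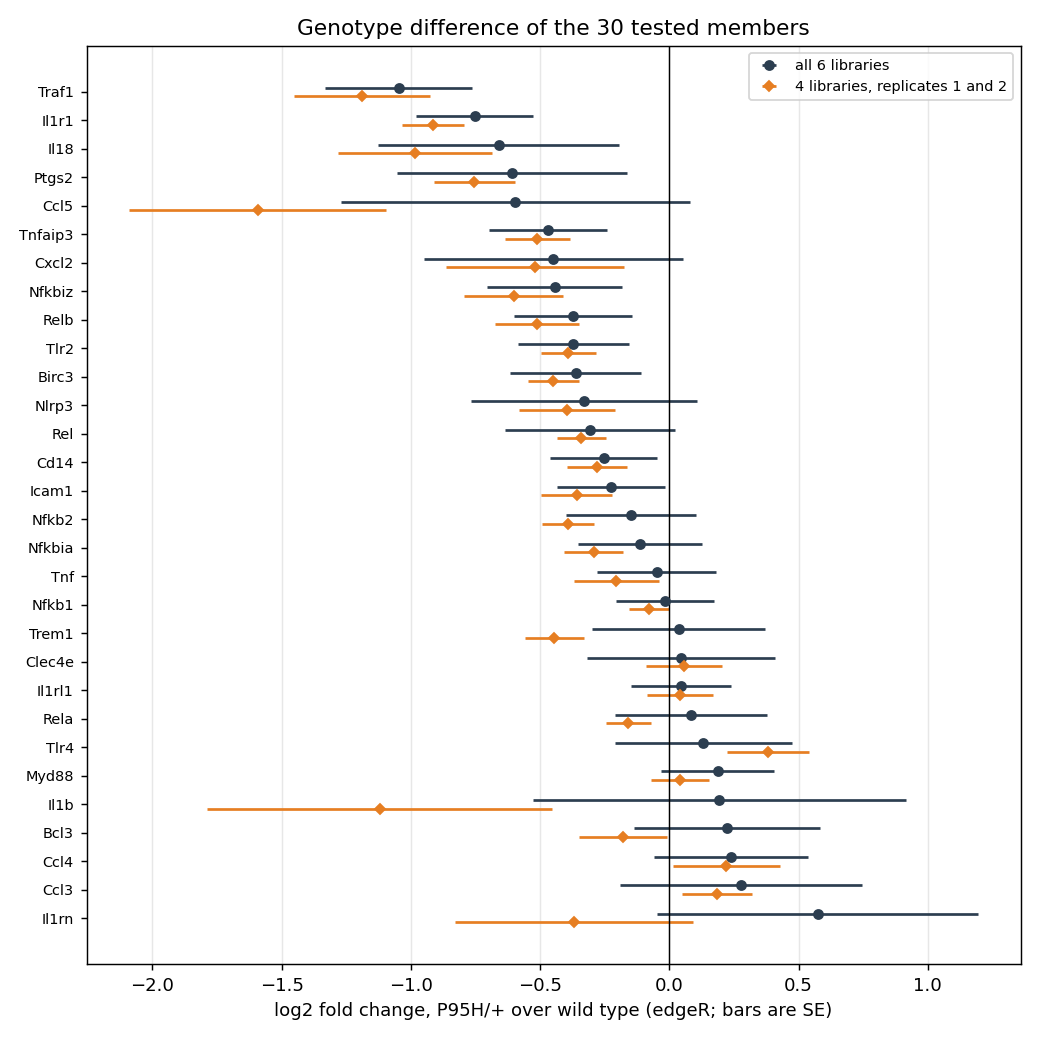
Log2 fold change of P95H/+ over wild type for the 30 tested members, with SE as bars. Dark circles are the fit on 6 libraries, where 19 members lie below 0, and orange diamonds the fit on the 4 libraries of replicates 1 and 2, where 24 do.

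Among the subunits, Relb stood out by separating the genotypes, and the other 4 overlapped. Relb (chr7:19606217-19629438, minus strand), the subunit that pairs with the Nfkb2 product in the non-canonical pathway, stood at 16.4, 16.7 and 14.01 CPM in wild-type replicates 1, 2 and 3. The P95H/+ replicates stood at 9.55, 13.2 and 11.9 CPM, each below the lowest wild-type library. Group means were 15.7 ± 1.49 and 11.6 ± 1.86 CPM (SD, n = 3 each), with log2 fold change -0.37 (SE 0.23, edgeR adjusted p 1).

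Nfkb2 (chr19:46304320-46312385, plus strand) stood at 61.8, 63.6 and 70.2 CPM in wild type and at 42.5, 51.1 and 73.3 CPM in P95H/+. The first 2 P95H/+ libraries were the lowest of all 6 and the third was the highest, and the log2 fold change was -0.15 (SE 0.25). AC114539.1 and Psd have exons on its other strand, so its count is uncertain if reads were counted without strand.

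Rel, the subunit of lymphoid and myeloid cells, stood at 159, 156 and 87.0 CPM in wild type and at 110, 134 and 67.5 CPM in P95H/+. Within each genotype replicate 3 was the lowest library, and each P95H/+ replicate lay below the wild-type replicate of its number. The log2 fold change was -0.31 (SE 0.33, edgeR adjusted p 1).

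Rela, the main activating subunit, ran the other way across replicates, at 101, 111 and 138 CPM in wild type and 90.8, 95.1 and 164 CPM in P95H/+. Replicate 3 was the highest library in both genotypes, and the log2 fold change was 0.08 (SE 0.29). Nfkb1, whose product pairs with that of Rela, was the most even of the 5, at 247, 246 and 285 CPM against 224, 234 and 271 CPM, with log2 fold change -0.02 (SE 0.19).

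The group of inhibitor or IκB proteins held the member with the highest mean CPM, Tnfaip3. Tnfaip3 (chr10:19000910-19015657, minus strand) encodes a ubiquitin-editing enzyme that ends NF-κB signalling. It stood at 538, 503 and 393 CPM in wild type and at 305, 412 and 272 CPM in P95H/+, so that P95H/+ replicate 2 lay above wild-type replicate 3 and the groups overlapped there. Means were 478 ± 76.0 and 329 ± 73.0 CPM (SD, n = 3 each), and the log2 fold change of -0.47 (SE 0.23) had an edgeR adjusted p of 1.

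Nfkbiz, an IκB protein that works in the nucleus as a coactivator of secondary response genes, stood at 238, 208 and 143 CPM in wild type and 116, 172 and 125 CPM in P95H/+. P95H/+ replicate 2 lay above wild-type replicate 3, and the log2 fold change was -0.44 (SE 0.26). Nfkbia, the classical feedback inhibitor, stood at 255, 246 and 163 CPM in wild type and 173, 227.6 and 184 CPM in P95H/+, with all 3 P95H/+ libraries inside the wild-type range. Its log2 fold change was -0.11 (SE 0.24). Bcl3, a nuclear IκB protein, was lowest in P95H/+ replicate 1 and highest in P95H/+ replicate 3, and is described further on.

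Of the 10 cytokines and chemokines, 8 were tested, of which 4 lay below wild type and 4 above, with a median log2 fold change of 0.07. Il18, an inflammasome-processed cytokine, was the one with the smallest p. It stood at 2.48, 1.99 and 0.713 CPM in wild type and 0.923, 1.28 and 0.930 CPM in P95H/+, and the wild-type range enclosed all P95H/+ libraries. Its log2 fold change was -0.66 (SE 0.47, edgeR adjusted p 1), and levels near 1 CPM rest on few counts.

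Tnf, which drives the canonical pathway through its receptors, stood at 19.9 ± 2.15 CPM in wild type and 18.3 ± 3.42 CPM in P95H/+ (SD, n = 3 each), with log2 fold change -0.05 (SE 0.23). The macrophage inflammatory chemokines Ccl3 and Ccl4 stood in P95H/+ at 63.2 ± 27.0 and 30.6 ± 10.8 CPM, and in wild type at 54.3 ± 25.996 and 27.1 ± 5.82 CPM (SD, n = 3 each). For both, the log2 fold change was smaller than its error, at 0.28 (SE 0.47) for Ccl3 and 0.24 (SE 0.30) for Ccl4.

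Cxcl2, a neutrophil attractant whose promoter is shown above, stood at 34.1, 27.8 and 11.4 CPM in wild type and 14.6, 27.8 and 9.21 CPM in P95H/+. The replicate 3 libraries were the lowest within each genotype, and the log2 fold change was -0.45 (SE 0.50). Ccl5, a chemokine of T and NK cells, was highest in wild-type replicate 1, at 4.61 CPM, and stood between 0.891 and 2.70 CPM in the other 5 libraries. In the same libraries Ncr1, an NK cell gene, was also highest in wild-type replicate 1, at 3.00 CPM, and stood at 0.177 to 0.930 CPM elsewhere. Of the 10 T and NK genes, 6 were tested and 5 lay below wild type. Their summed levels were 155 to 303 CPM in wild type and 180 to 239 CPM in P95H/+, and came mostly from Nkg7. Both Nkg7, at 137 CPM, and the sum, at 155 CPM, were lowest in wild-type replicate 1, where Ccl5 and Ncr1 were highest. Cd3g was at 0 in P95H/+ replicate 1, and the part of such cells in the Ccl5 values was not tested.

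Both members below the filter are secreted factors. Il1a, an interleukin-1 ligand, stood at 0.0869, 0.474 and 0.237 CPM in wild type and 0.185, 0.221 and 0.0930 CPM in P95H/+. Cxcl1, a neutrophil attractant, stood at 0.0869, 0.284 and 0.237 CPM in wild type and 0.323, 0.354 and 0.0930 CPM in P95H/+. The lowest values of both rest on 2 counts in wild-type replicate 1 and 1 count in P95H/+ replicate 3, and no difference was detectable at this depth.

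Among the 7 receptors, Il1r1 was set apart from the rest. Il1r1 (chr1:40225080-40317257, plus strand), the signalling receptor for interleukin-1, stood at 27.9, 28.7 and 20.5 CPM in wild-type replicates 1, 2 and 3. It stood at 13.6, 15.8 and 14.1 CPM in the P95H/+ replicates, all of which lay below the lowest wild-type library. The means were 25.7 ± 4.51 CPM in wild type and 14.5 ± 1.15 CPM in P95H/+ (SD, n = 3 each), a ratio of 0.593 after TMM scaling. The log2 fold change was -0.75 (SE 0.23), with an unadjusted edgeR p of 0.0113 and an adjusted p of 1.

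Il1r1 passed the test over all genes when the replicate 3 libraries were left out, at a log2 fold change of -0.92 (SE 0.12, edgeR adjusted p 0.0097). It also passed in limma's voom with sample quality weights, which down-weighted the replicate 3 libraries to 0.26 and 0.17, against 1.46 to 3.28 for the others. There its adjusted p was 0.0406, and 0.449% of all genes were called as lower. Over the 17 alternative fits the log2 fold change of Il1r1 ran from -0.92 to -0.65 and its adjusted p from 0.0097 to 1. The neighbouring gene Il1rl1, which encodes the interleukin-33 receptor on the same chromosome, stood at 23.1 ± 0.805 CPM in wild type and 22.7 ± 2.67 CPM in P95H/+ (SD, n = 3 each). The log2 fold change came to 0.05 (SE 0.19), and the difference between the 2 receptors' changes was not tested.

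Tlr2 (chr3:83836272-83841767, minus strand), a receptor for bacterial lipopeptides, stood at 35.1, 36.1 and 28.5 CPM in wild type and 24.8, 28.3 and 20.3 CPM in P95H/+. In CPM the highest P95H/+ library lay just under the lowest wild-type library, and after TMM scaling they overlapped. Its log2 fold change was -0.37 (SE 0.22, edgeR adjusted p 1). Cd14, the co-receptor for lipopolysaccharide, stood at 22.6, 24.3 and 19.8 CPM in wild type and 18.6, 19.2 and 15.4 CPM in P95H/+, with log2 fold change -0.25 (SE 0.21). Its groups, too, separated in CPM and overlapped after TMM scaling. Genes of monocytes and macrophages did not shift together, with 5 of 9 tested below wild type and 4 above, none at 0 in any library, and summed levels of 1065 to 1193 CPM in wild type and 1011 to 1148 CPM in P95H/+.

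The remaining receptors lay above wild type with errors larger than the change. Tlr4, the lipopolysaccharide receptor, stood at 19.6 ± 2.80 CPM in wild type and 20.4 ± 8.71 CPM in P95H/+ (SD, n = 3 each), with log2 fold change 0.13 (SE 0.34). Clec4e, a C-type lectin receptor for damaged cells and fungi, differed by 0.04 on the log2 scale (SE 0.36), and Trem1, a receptor that amplifies myeloid inflammation, by 0.04 (SE 0.33).

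Traf1 had the largest fold change and the smallest p of the 30 tested members. Traf1 (chr2:34941750-34961772, minus strand) encodes an adaptor of the TNF receptor family and is a known NF-κB target. It stood at 9.08, 6.40 and 6.23 CPM in wild type and at 2.58, 4.07 and 3.35 CPM in P95H/+, with a clear gap between the groups. Means were 7.24 ± 1.5998 and 3.33 ± 0.742 CPM (SD, n = 3 each), a ratio of 0.484 after TMM scaling. The log2 fold change was -1.05 (SE 0.28), with an unadjusted edgeR p of 0.00707 and an adjusted p of 1. Over the 17 alternative fits its log2 fold change ran from -1.20 to -0.85 and its adjusted p from 0.0751 to 1, so that no fit called it.

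Birc3, an inhibitor of apoptosis that acts beside the TRAF adaptors, stood at 68.5, 67.3 and 43.8 CPM in wild type and 44.3, 53.2 and 35.9 CPM in P95H/+. P95H/+ replicates 1 and 2 lay between wild-type replicate 3 and the other wild-type libraries, and the log2 fold change was -0.36 (SE 0.25, edgeR adjusted p 1). Nlrp3, the inflammasome sensor, varied more between replicates than between genotypes, from 48.03 to 138 CPM in wild type and 41.1 to 96.7 CPM in P95H/+, with log2 fold change -0.33 (SE 0.44). Myd88, the adaptor that Il1r1, Tlr2 and Tlr4 share, stood at 34.0 ± 2.09 CPM in wild type and 36.7 ± 6.45 CPM in P95H/+ (SD, n = 3 each). The log2 fold change came to 0.19 (SE 0.22), with exons of Acaa1a on the other strand.

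Both effectors lay below wild type. Ptgs2, the inducible cyclooxygenase, stood at 34.5, 26.9 and 11.04 CPM in wild type and 15.4, 20.3 and 9.77 CPM in P95H/+. Wild-type replicate 3 lay among the P95H/+ libraries, and the log2 fold change was -0.61 (SE 0.45, edgeR adjusted p 1). Icam1, an adhesion molecule for leukocytes, stood at 26.3, 24.5 and 23.6 CPM in wild type and 16.7, 22.2 and 21.7 CPM in P95H/+. Its groups separated in CPM and overlapped after TMM scaling, at a log2 fold change of -0.23 (SE 0.21). Gm47079 has an exon on its other strand.

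**Figure D3:**
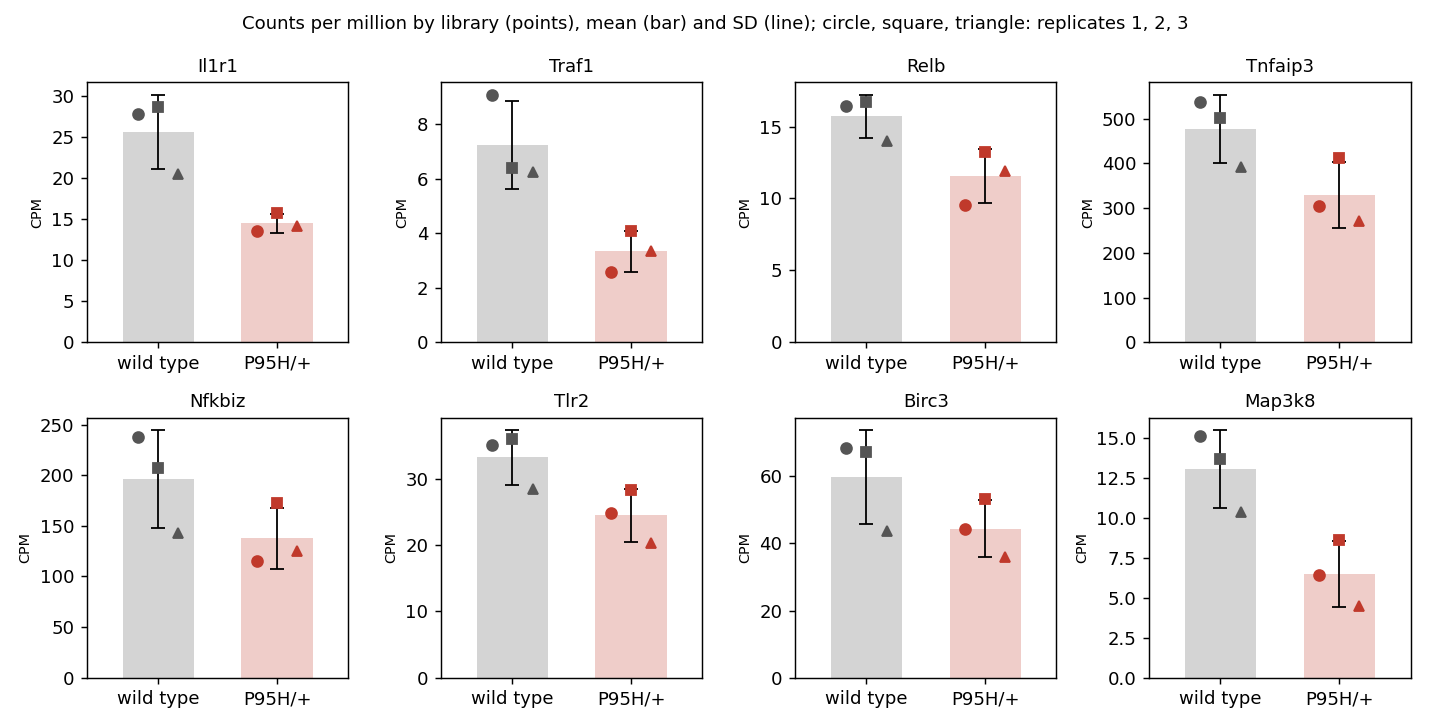
CPM in each library for the 7 members with the smallest p and for the pathway kinase gene Map3k8. Points are libraries, bars group means and lines SD, each axis starting at 0. Il1r1, Traf1, Relb, Tlr2 and Map3k8 have no P95H/+ library at or above a wild-type one in CPM.

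Members differed widely in level. Per kilobase of exon, Nfkbia was highest over the 6 libraries, at a mean of 129 CPM per kilobase (101 to 158 over the libraries), followed by Ccl3 at 76.7 (31.9 to 117) and Tnfaip3 at 55.9 (37.6 to 74.5). Neighbours in this order overlap in range, while Nfkbia and Tnfaip3 do not. The subunits followed the order Rela at 37.9, Nfkb1 at 20.8, Rel at 15.9, Nfkb2 at 13.2 and Relb at 3.51 CPM per kilobase. The 2 members with the smallest p stood at 3.16 (Il1r1) and 0.599 (Traf1) CPM per kilobase, while Nfkbiz, also among the 12 with the smallest p, stood at 33.3. Only Il1rn at 0.202, Cxcl1 at 0.123 and Il1a at 0.110 CPM per kilobase lay below Traf1.

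The other genes of the pathway were spread evenly around 0 with 6 libraries. A list of 86 further kinases, adaptors, receptors, inhibitors, targets and inflammasome genes had 85 in the table and 76 tested. Of these, 39 lay below wild type and 37 above, with a median log2 fold change of -0.003, and none had an adjusted p under 0.05. An unadjusted p under 0.05 was reached by Map3k8 alone, as lower, against 1.41% of all genes for lower and 0.7% for higher values. The groups separated for Map3k8 and Traf5 as lower and for Card9 as higher, against 3.91% and 3.29% of all genes. Csf2 and 8 others were not tested, among them Bcl2a1a, Bcl2a1b and Bcl2a1d, near-identical copies that can share reads.

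Map3k8 encodes a kinase bound to the Nfkb1 precursor that carries Toll-like and TNF receptor signals to the ERK pathway. It stood at 15.1, 13.7 and 10.3 CPM in wild type and 6.41, 8.58 and 4.47 CPM in P95H/+, with no overlap. The log2 fold change was -0.93 (SE 0.30, edgeR adjusted p 1), and without the replicate 3 libraries it was -0.91 (SE 0.17, edgeR adjusted p 0.0472). Over the 17 alternative fits its log2 fold change ran from -1.16 to -0.75 and its adjusted p from 0.0472 to 1. Next by p among lower genes were Tnip3, an inhibitor that binds the Tnfaip3 product, at 13.99, 9.998 and 4.10 CPM against 4.57, 6.99 and 1.67 CPM, and Nlrc4, an inflammasome sensor, at 17.5, 10.3 and 9.50 CPM against 9.60, 8.58 and 6.51 CPM. Their log2 fold changes were -1.01 (SE 0.58) and -0.52 (SE 0.31).

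Among pathway genes above wild type, the 3 with the smallest p were Vcam1, an adhesion molecule, Card9, an adaptor of C-type lectin receptors, and Il1rap, the partner chain of Il1r1. Vcam1 stood at 24.0, 18.5 and 54.0 CPM in wild type and 98.2, 29.3 and 43.9 CPM in P95H/+, with log2 fold change 0.92 (SE 0.55). Card9 stood at 70.2, 67.8 and 77.9 CPM against 84.4, 79.9 and 82.6 CPM, every P95H/+ library being higher, at a log2 fold change of 0.27 (SE 0.17). Il1rap stood at 30.9, 24.6 and 22.9 CPM against 36.7, 36.7 and 22.5 CPM, with log2 fold change 0.36 (SE 0.25). The 2 chains of the interleukin-1 receptor thus had values on opposite sides of 0, a difference that was not tested. The adjusted p of all 3 genes was 1 in edgeR, and each has an exon of another gene on its other strand.

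With replicates 1 and 2 alone more members lay below wild type, and 1 member passed the test. Of the 30 tested members 24 were lower in P95H/+, with a median log2 fold change of -0.38, while 50.4% of the 17371 genes tested were lower and their median was -0.003. An adjusted edgeR p under 0.05 was reached by Il1r1 alone, as lower, against 0.645% of all genes for lower and 0.184% for higher values. An unadjusted p under 0.05 was reached by 16 members as lower and by Tlr4 as higher, against 9.44% and 6.14% of all genes. In 20 members both P95H/+ libraries lay below both wild-type libraries, and in Tlr4 both lay above, against 25% and 23.1% of all genes. By role, 5 of 5 subunits, 4 of 4 inhibitor or IκB proteins and 6 of 8 cytokines and chemokines were lower. So were 4 of 7 receptors, 3 of 4 adaptor, survival and inflammasome genes and 2 of 2 effectors. The other pathway genes had 54 of 76 lower, with a median of -0.09.

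These 4 libraries compare a 54-week female and a 32-week male with 2 females of 32 weeks, so sex and age are not matched. The log2 fold changes there were -1.19 (SE 0.26) for Traf1, -0.51 (SE 0.13) for Tnfaip3 and -0.45 (SE 0.10) for Birc3, and none of these 3 passed over all genes.

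The members' median shift was found between the replicate 1 and 2 libraries and not between the replicate 3 libraries. Between the means of replicates 1 and 2 the median log2 difference of the 30 members was -0.36, while that of all genes was 0.01. Between the replicate 3 libraries it was 0.03, with 14 of 30 members below, and that of all genes was 0.05. Both replicate 3 libraries came from 32-week males, while the replicate 1 and 2 libraries were not matched in sex and age between genotypes. The part of sex and age in this difference was not tested. Without wild-type replicate 1, the 54-week female, the members' median log2 fold change moved from -0.19 to -0.04, and 18 of 30 lay below wild type. The median and share over all genes in that fit are not given here. Library by library, the median deviation of the members from their own mean was highest in wild-type replicates 1 and 2, at 0.28 and 0.21. It was -0.12 in wild-type replicate 3, and -0.30, -0.01 and -0.26 in P95H/+ replicates 1, 2 and 3. P95H/+ replicate 1 was the lowest library for 13 members and P95H/+ replicate 3 for 10, while wild-type replicate 1 was the highest for 11. P95H/+ replicate 3 was also the highest for 8 members, so that it held both extremes.

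With the replicate number as a block in the edgeR fit, 6 members had an unadjusted p under 0.05 in place of 2, all lower, against 2.89% of all genes. These were Il1r1, Traf1, Tnfaip3, Tlr2, Birc3 and Ptgs2, with adjusted p between 0.665 and 0.869. A single gene, no member, was called over all genes with the block, and none was called without it.

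In both genotypes the replicate 3 libraries differed from their mates along the GC content of the transcript. Across the 30 members the log2 difference of replicate 3 from the mean of replicates 1 and 2 correlated with transcript GC content at Pearson 0.49 in wild type (Spearman 0.53) and 0.45 in P95H/+ (Spearman 0.54). Across all 17078 genes with a GC value Pearson was 0.58 and 0.64. The points of each panel share their libraries, and genes are not independent replicates. In wild type replicate 3 was lower than its mates for 25 members and higher for 5, and in P95H/+ it was lower for 16 and higher for 14. GC-poor members such as Ptgs2, Rel, Cxcl2 and Clec4e were lower in both replicate 3 libraries, and GC-rich Rela and Nfkb2 were higher in both. Not all members followed this order. Relb, the GC-richest at 60.85%, was lower in wild type (-0.27) and higher in P95H/+ (0.145). Il1rl1, at 43.42%, hardly moved in either (-0.0003 and -0.0079). In a GC-corrected fit the members' median was -0.23 and 20 of 30 lay below wild type. The median and share over all genes in that fit are not given here, and the part of GC content in the members' values was not tested.

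**Figure D4:**
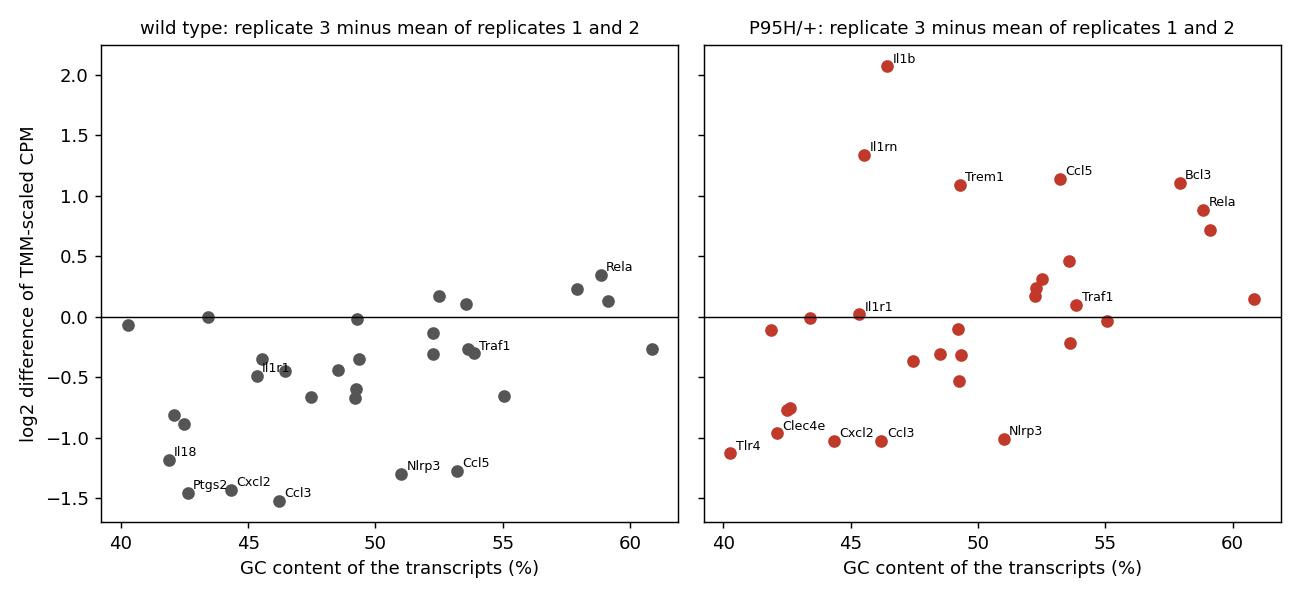
Log2 difference of replicate 3 from the mean of replicates 1 and 2, in TMM-scaled CPM, against transcript GC content in percent, 1 point per tested member, for wild type on the left and P95H/+ on the right. Points rise from left to right in both panels with wide scatter, and Il1b, Il1rn, Trem1, Ccl5 and Bcl3 sit above 1 in P95H/+ only.

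The members that changed sides without the replicate 3 libraries were Rela and 4 inflammatory genes, Il1b, Il1rn, Trem1 and Bcl3. P95H/+ replicate 3 was the highest library for each of them, and the 4 were picked after their values were seen. Il1b, the inflammasome-processed interleukin-1 ligand, stood at 10.6, 3.36 and 4.39 CPM in wild type and 2.40, 3.89 and 13.8 CPM in P95H/+. Il1rn, the interleukin-1 receptor antagonist, stood at 1.39, 0.616 and 0.653 CPM against 0.554, 0.973 and 2.51 CPM. In both genes P95H/+ replicate 3 was the highest library and wild-type replicate 1 the next.

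Trem1 stood at 30.4, 27.6 and 29.3 CPM in wild type and 21.7, 19.99 and 42.8 CPM in P95H/+, and Bcl3 at 10.1, 9.24 and 11.7 CPM against 7.43, 9.29 and 17.6 CPM. For Trem1 both other P95H/+ libraries lay below all wild-type libraries. The log2 fold changes with 6 libraries were 0.19 (SE 0.72) for Il1b, 0.57 (SE 0.62) for Il1rn, 0.04 (SE 0.33) for Trem1 and 0.22 (SE 0.36) for Bcl3. Without the replicate 3 libraries they were -1.12 (SE 0.67), -0.37 (SE 0.46), -0.44 (SE 0.12) and -0.18 (SE 0.17), all short of the threshold over all genes. Il1b has an exon of Il1bos and Bcl3 an exon of Gm16175 on the other strand.

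Genes of neutrophils followed a like order of libraries. Their summed level over 8 genes was 883, 286 and 441 CPM in wild type and 454, 328 and 1391 CPM in P95H/+, with 8 of 8 above wild type in P95H/+ and none at 0 in any library. P95H/+ replicate 3 and wild-type replicate 1 thus had the highest sums, as they had the highest levels of Il1b and Il1rn. The granule protein genes Ltf and Ngp made up 399 and 457 CPM of the sum in P95H/+ replicate 3, which was the highest library for 6 of the 8 genes. The other 2 were highest in wild-type replicate 1. S100a8 stood at 171, 84.0 and 146 CPM in wild type and 171, 103 and 129 CPM in P95H/+, and S100a9 at 217, 78.7 and 79.6 CPM against 132, 87.7 and 173 CPM. P95H/+ replicate 3 also had the highest sums of the erythroid, B cell and megakaryocyte lists, at 1139, 139 and 381 CPM. The part of neutrophil RNA, or of RNA of these other cell types, in the values of Il1b, Il1rn, Trem1 and Bcl3 was not tested.

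**Figure D5:**
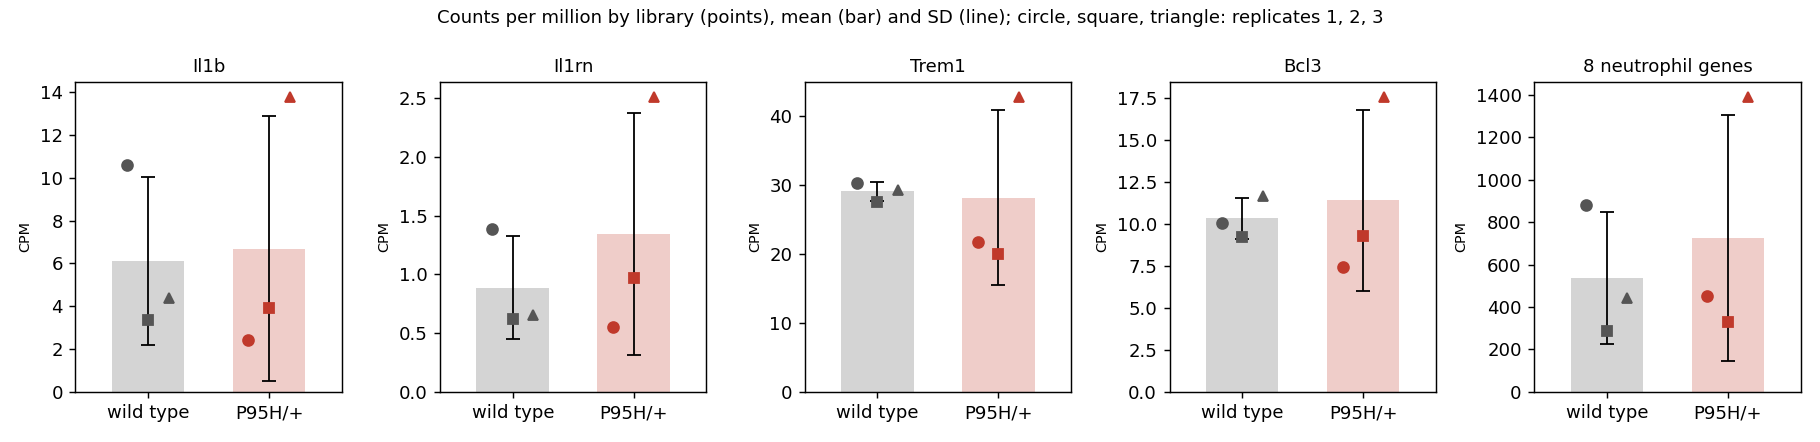
CPM in each library for Il1b, Il1rn, Trem1 and Bcl3 and the summed CPM of 8 neutrophil genes. Points are libraries, bars group means and lines SD, each axis starting at 0. P95H/+ replicate 3, the red triangle, is the highest point of every panel.

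Other cell type lists also moved beside the members, some by more than the members did. Dendritic cell genes lay below wild type in 6 of 6, at a median log2 fold change of -0.35, with summed levels of 213 to 321 CPM in wild type and 193 to 246 CPM in P95H/+ and none at 0. The T and NK genes given above had a median of -0.65 over the 6 tested. Megakaryocyte genes lay above in 5 of 5, at a median of 0.31 and sums of 168 to 262 CPM in wild type and 170 to 381 CPM in P95H/+. Primary granule genes lay above in 5 of 5, at a median of 0.13 and sums of 6824 to 11717 CPM and 8559 to 9594 CPM. Plasma cell genes lay above in 3 of 4, at a median of 0.72 and sums of 18.4 to 43.7 CPM and 38.0 to 64.2 CPM. Stem and progenitor genes lay below in 5 of 8, at a median of -0.19, with sums of 1875 to 2246 CPM and 1918 to 2185 CPM, and share Flt3 with the dendritic list. Genes of mast cells and basophils lay below in 4 of 6, at 346, 288 and 151 CPM in wild type and 211, 291 and 155 CPM in P95H/+, with replicate 3 lowest in both genotypes as for Rel and Ptgs2. Erythroid genes lay above in 4 of 6, at a median of 0.12 and sums of 525 to 840 CPM in wild type and 438 to 1139 CPM in P95H/+. B cell genes lay below in 3 of 6, at a median of 0.05 and sums of 75.9 to 114 CPM and 59.1 to 139 CPM. Stroma and endothelium genes lay below in 2 of the 4 tested, at a median of -0.05. Apart from the T and NK list and the stroma and endothelium list (Cdh5 and Lepr) none of these held a gene at 0. The lists' part in the members' values was not tested.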

How the data were processed

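Total RNA of sorted Lin-/cKit+/eYFP+ cells was depleted of ribosomal RNA and sequenced in pairs from a stranded kit, per the labels' protocols. The submitters' processing notes name Trim Galore, cutadapt, STAR 2.5.3a, Picard 1.96, featureCounts, Subread 1.5.1, edgeR, limma and mm10. Their roles and the strand setting are not given in the sources used here. The deposited values used are the authors' raw counts per gene. Of the counts, 0.0162% lay in 63 rows with no symbol.

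The comparison of genotypes used R 4.3.3 and edgeR 4.0.16, TMM factors, filterByExpr, robust quasi-likelihood fits, a two-sided F test and Benjamini-Hochberg adjustment over all genes tested at 0.05. CPM are counts over library totals of 10747941 to 23010510. Log2 differences between libraries, those correlated with GC content included, added 0.5 CPM. A prior count of 2 was used for the pairing correlations, the GC-corrected fit and the median deviations of GC-poor genes. Gene lengths, GC content and overlaps came from GENCODE M21, which holds 25878 of the identifiers. The script was tested on simulated data. Alternatives took another scaling, filter or test (DESeq2 1.42.0, limma 3.58.1), sex, replicate number, a GC spline with 4 degrees of freedom, and leaving out libraries. Deviations of same-numbered libraries correlated across genes at 0.372, 0.348 and 0.613, all above 0.1. The numbers, taken from the labels, entered as a block in an alternative fit and not in the main fit. Same-numbered mice differed in age (replicate 1) or in sex (replicate 2). Deviations were taken from the mean of a genotype's 3 libraries, so a shift of replicate 3 enters all 3 correlations, which cannot by themselves show pairing. The replicate 3 libraries share a shift along GC content, whose part in these correlations was not tested.

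Values per library are given for members called in any fit, the 12 with the smallest p, those with separated groups, the subunits, Nfkbia and Tnfaip3, and those below the filter. Of other pathway genes, the 3 with the smallest p in each direction are named. Traf5, Cxcl2, Ccl5, Il1b, Il1rn, Trem1 and Bcl3 were added after their values were seen. The members and lists were chosen with earlier results of these data known.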

Additional observations from a re-analysis of the deposited data

How the results depend on the processing

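All 17 alternatives gave 462 of 510 member values on the same side of 0 and of the threshold as the values above; 46 changed sign and 2, both for Il1r1, passed the threshold. The sign never changed for 16 of 30 members, 15 of them lower and 1, Myd88, higher. Over all genes 8 were called by DESeq2's Wald test, 97 by voom with sample quality weights (1 of them a member), 1 with the replicate block and 144 with 4 libraries (1 a member), and 0 to 1 when single libraries were left out, the 1 without wild-type replicate 3. The block changed no other call. With 4 libraries the median was -0.38 for members and -0.090 for other pathway genes. Members with separated groups numbered 6 with library totals, 21 with 4 libraries and 3 to 15 when single libraries were left out. The shares over all genes are given above, except for the fits without wild-type replicate 1 and without wild-type replicate 2. Those shares were not taken, and the lowest count of members belongs to these fits.

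Sign changes of log2 fold changes were as follows. With DESeq2 size factors, in edgeR or the Wald test, Nfkb1 was at 0.010. With library totals Rela was at -0.0023, Il1rl1 at -0.027, Trem1 at -0.052 and Clec4e at -0.020. With voom Il1b was at -0.11 and Trem1 at -0.10, and with quality weights Rela was at -0.16, Bcl3 at -0.10, Il1b at -0.48 and Trem1 at -0.42. With the replicate block Trem1 was at -0.065. With sex in the model Nfkb1 was at 0.049, Ccl3 at -0.046, Tlr4 at -0.19 and Clec4e at -0.26. With 4 libraries Rela was at -0.16, Bcl3 at -0.18, Il1b at -1.12, Il1rn at -0.37 and Trem1 at -0.44. With the GC correction Rela was at -0.0032. Without single libraries Rela ran from -0.27 to 0.23, Nfkb1 from -0.13 to 0.045, Bcl3 from -0.25 to 0.44, Tnf from -0.15 to 0.077, Il1b from -0.91 to 0.85, Il1rn from -0.18 to 1.07, Ccl3 from -0.076 to 0.55, Ccl4 from -0.051 to 0.41, Ccl5 from -1.20 to 0.30, Il1rl1 from -0.030 to 0.094, Tlr4 from -0.17 to 0.42, Trem1 from -0.43 to 0.25, Clec4e from -0.18 to 0.32 and Nlrp3 from -0.65 to 0.040. The cause was not tested. With 3 libraries a group and 10747941 counts in the shallowest, members near 1 CPM cannot be resolved.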
